A study of Mus musculus with 123 samples.

Results

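Mitochondrial ribosomal proteins are the protein part of the ribosome that works inside mitochondria, and their genes were followed through heart development in single GFP-positive cells. The members were every gene symbol of the count table that begins with Mrpl or Mrps and goes on with a digit. There were 76 such symbols among 23337, of which 47 begin with Mrpl and 29 with Mrps. By the proteins' known place, 49 belong to the large subunit, Mrps30 and Mrps18a among them, and 26 to the small subunit. Mrps36 has kept a ribosomal name but is known as a component of the 2-oxoglutarate dehydrogenase complex, so it was counted as a member and left out of both subunits. The comparison genes were the 42 symbols that begin with Nduf, most of which encode subunits of respiratory complex I and 4 of which (Ndufaf) encode factors for its assembly. The cells came from hearts of αMHC-GFP mice, in which the α-myosin heavy chain promoter drives GFP, from embryonic stages E9.5 and E12.5 (days of gestation) and postnatal day 1 (P1). The heart cells were dissociated, sorted for GFP and captured on a Fluidigm C1 chip, and the embryonic hearts were digested with another enzyme mix than the P1 hearts. Of 123 cells, the 112 with at least 2000 genes were used, which were 42 E9.5 cells, 29 of E12.5 and 41 of P1, and the 11 left out were all from P1. Where 3 values follow each other below, they are those of E9.5, E12.5 and P1 in order of age. The labels name no animal, litter or chip, so each time point counted as 1 sample, no test between time points was possible, and the differences below have no replicate check over animals.

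Mitochondria keep a small genome that encodes a few core subunits of the respiratory chain and ATP synthase, and all of these are translated by the mitochondrial ribosome. Its RNAs come from the mitochondrial genome, whereas its proteins are encoded in the nucleus, made in the cytosol and imported. Part of them descend from bacterial ribosomal proteins and part were added later in the mitochondrial lineage. The Nduf proteins are also made in the cytosol, and complex I is completed only when its Nduf subunits join those made on the mitochondrial ribosome. The heart is rich in mitochondria and turns to oxidative metabolism around birth, and inherited faults in several mitochondrial ribosomal proteins cause cardiomyopathy.

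The promoters of 4 members that stand for the patterns described below are shown first, since members of a complex are often searched for shared motifs. Mrpl51 had the largest P1 to E9.5 ratio, Mrps12 the lowest, and Mrpl44 and Mrpl3 had the largest ratios in opposite directions from E9.5 to E12.5. Each window runs from 250 bases before to 50 bases after the gene start in RefSeq (build GRCm38.p6), 5′ to 3′ on the gene's strand, and capitals mark the motif matches. The Mrpl51 window is chr6:125191950-125192249 on the plus strand and holds an ETS match that begins 90 bases before the start. The Mrpl44 window is chr1:79775768-79776067 on the plus strand and holds none of the motifs searched. The Mrpl3 window is chr9:105053018-105053317 on the plus strand, with an ETS match 19 bases before the start. The Mrps12 window is chr7:28741772-28742071 on the minus strand, with a YY1 match 199 bases before the start that lies inside the neighbouring gene Sars2.
Mrpl51: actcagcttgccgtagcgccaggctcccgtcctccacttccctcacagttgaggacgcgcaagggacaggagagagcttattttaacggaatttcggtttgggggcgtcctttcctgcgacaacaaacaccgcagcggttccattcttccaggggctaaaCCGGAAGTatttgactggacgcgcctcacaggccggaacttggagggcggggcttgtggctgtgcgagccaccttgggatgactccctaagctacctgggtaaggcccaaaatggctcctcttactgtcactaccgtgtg
Mrpl44: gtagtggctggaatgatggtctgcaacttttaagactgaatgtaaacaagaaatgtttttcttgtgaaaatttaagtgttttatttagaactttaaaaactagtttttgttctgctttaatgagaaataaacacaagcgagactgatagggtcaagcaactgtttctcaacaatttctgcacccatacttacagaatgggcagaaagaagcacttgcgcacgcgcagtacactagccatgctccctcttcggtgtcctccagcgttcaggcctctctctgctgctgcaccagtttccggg
Mrpl3: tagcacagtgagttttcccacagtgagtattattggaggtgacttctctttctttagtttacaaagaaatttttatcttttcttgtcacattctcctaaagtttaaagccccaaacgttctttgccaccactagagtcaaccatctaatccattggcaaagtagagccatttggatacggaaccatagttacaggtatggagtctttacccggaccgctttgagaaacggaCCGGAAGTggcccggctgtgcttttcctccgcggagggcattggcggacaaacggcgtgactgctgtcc
Mrps12: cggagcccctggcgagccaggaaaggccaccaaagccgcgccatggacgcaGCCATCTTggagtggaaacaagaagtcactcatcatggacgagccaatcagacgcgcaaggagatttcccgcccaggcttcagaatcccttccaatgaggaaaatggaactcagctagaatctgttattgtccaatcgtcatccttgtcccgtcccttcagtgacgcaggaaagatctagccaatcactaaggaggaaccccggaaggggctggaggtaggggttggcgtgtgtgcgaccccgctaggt

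The search covered 4 motifs, taken by their letters on both strands and without overlap of one with another: GCGCATGC, the core of the NRF1 motif, CCGGAAGT, bound by ETS factors such as GABPA, AAGATGGC, the YY1 motif, and TCAAGGTCA, the ESRRA motif. Promoters were found in the RefSeq table for 67 of the 76 members, and those of Mrpl4, Mrpl13, Mrpl15, Mrpl19, Mrpl38, Mrpl54, Mrps28, Mrps34 and Mrps35 were not analysed here. The ETS motif was present in 17.9% of the members' promoters, in 2.70% of those of 37 Nduf genes, in 9.94% of those of all genes with a mean of at least 5 counts per 1000000 (CPM), and in 4.31% of the 27025 genes of the table. The YY1 motif was present in 17.9% of the members and in 18.9% of the Nduf genes, against 5.96% of the expressed genes. The NRF1 motif stood in 11.9% of the members, 10.8% of the Nduf genes and 6.99% of the expressed genes. No member and no Nduf gene held the ESRRA letters, which 0.287% of the expressed genes did. Of the members described below, the ETS motif was present for Mrpl3, Mrpl18, Mrpl33, Mrpl51, Mrps18c, Mrps22, Mrps26 and Mrps27 and in 1 of the windows of Mrpl48, the YY1 motif for Mrpl36, Mrpl42, Mrps12, Mrps18a and Mrps27, and the NRF1 motif for Mrpl9, Mrpl10, Mrpl33 and Mrps18b. Members with the ETS motif thus included the member with the largest P1 to E9.5 ratio, Mrpl51, and one whose E12.5 level was below its E9.5 level, Mrpl3. A match is a run of letters and does not show that a factor was bound there.

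The cells' titles fall into naming sets whose meaning the labels do not give, and the sets differ in depth. At E9.5, 14 cells carry titles beginning with C and 28 with N530, and at E12.5, 20 begin with C, 8 with N523 and 1 with E12-5b, while every P1 cell is of set C. Total counts ranged from 268301 to 588443 per cell in set C and from 1437114 to 6351742 in N530 at E9.5, from 148258 to 738496 in C and from 2953992 to 7711355 in N523 at E12.5, and from 69522 to 327360 at P1. Ratios were therefore also taken in every combination of naming sets of at least 6 cells. The SD beside a ratio is over those combinations, and the values in brackets after a member's ratio are its lowest and highest among them. The 12 cardiomyocyte markers, such as Actc1, Tnnt2 and Ttn, summed to at least 20436 CPM in every E12.5 cell, and to under 10000 CPM in 4 cells at E9.5 and 1 at P1. Myh6, whose promoter drives the GFP that was sorted for, is among them. The erythroid and macrophage markers were at a median of 0 CPM at each time point, and the endothelial, fibroblast and epicardial markers at a median of at most 1.18 CPM. Single E9.5 cells reached 4007 CPM of fibroblast and 2695 CPM of epicardial markers. The 5 smooth muscle markers had medians of 336, 327 and 0 CPM, so their sum was lower at P1, and their part in the members' ratios was not tested. No pair of cells had identical counts.

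The members together held a larger share of the counts at each later time point. Their summed level per cell at E9.5 was 1893 CPM in the lowest cell, 5255 in the median cell and 13321 in the highest, with a mean of 5599 ± 2255 (SD over 42 cells). At E12.5 the lowest, median and highest cells had 4020, 7728 and 12231 CPM (mean 7902 ± 2050, SD over 29 cells), and at P1 they had 3875, 9620 and 13814 CPM (mean 9560 ± 2133, SD over 41 cells). The ranges overlapped widely, yet the E9.5 median was exceeded by 25 of 29 cells of E12.5 and by 40 of 41 of P1. Of all counts of a cell, the members' mean share was 0.560%, 0.790% and 0.956%. The log2 ratio of the mean sums was 0.50 ± 0.18 for E12.5 to E9.5 (SD over 4 combinations, lowest 0.40, highest 0.78), a 1.41-fold difference. It was 0.77 ± 0.07 for P1 to E9.5 (2 combinations, 0.74 and 0.84), which is 1.71-fold. Between E12.5 and P1 it was only 0.27 ± 0.20, with 0.34 against the C cells and 0.06 against the N523 cells of E12.5. The difference from E9.5 thus exceeded the spread over naming sets at both later times, and that between E12.5 and P1 was close to it.

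**Figure D1:**
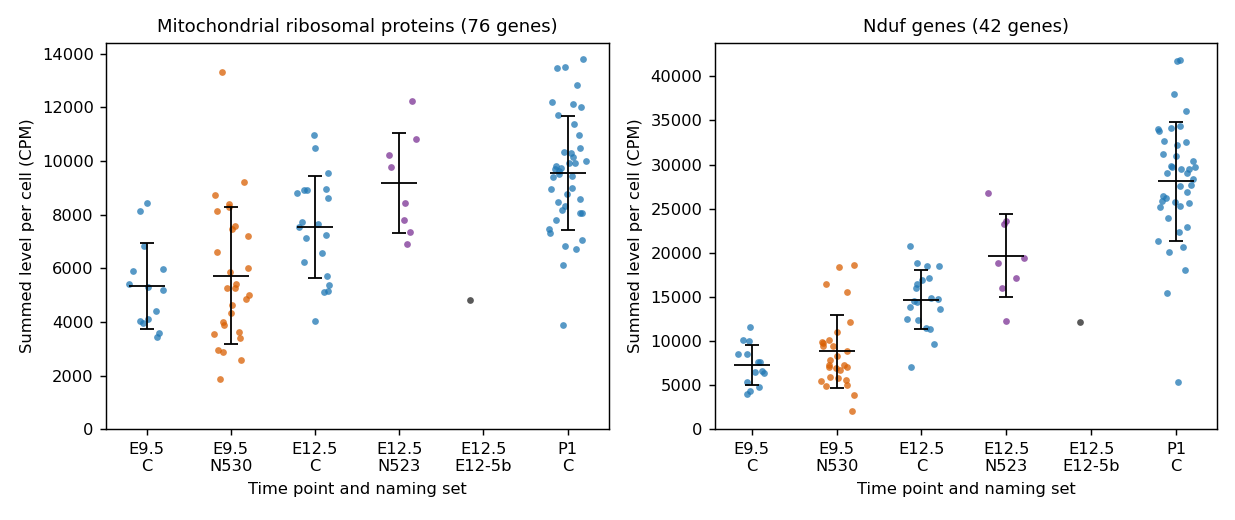
Summed CPM of the 76 mitochondrial ribosomal protein genes (left) and of the 42 Nduf genes (right) in each cell (points) by time point and naming set; bars give the mean and SD over cells for sets of at least 6 cells. The left means go from 5340 CPM in E9.5 set C to 9560 CPM at P1, and the right means from 7265 to 28079 CPM.

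The same order held at equal depth. When each cell was thinned to 100000 counts, which left out 3 of the 41 P1 cells and no embryonic cell, the mean sums were 5635, 7910 and 9538 CPM. Within set C alone the means were 5340, 7538 and 9560 CPM. Set N530 had a mean of 5728 CPM at E9.5 and N523 had 9195 CPM at E12.5, so that N523 stood above the C cells of its own time point by less than their SD of 1890 CPM. Counts pooled over the cells of a time point gave 6170 CPM at E9.5 (95% Poisson interval 6154 to 6185), 9108 at E12.5 (9081 to 9134) and 9531 at P1 (9458 to 9604), where the deep N530 and N523 cells carry most of the embryonic counts and the intervals cover counting error only. Scaling by edgeR's TMM factors, which moves the E12.5 to E9.5, P1 to E9.5 and P1 to E12.5 ratios of every gene by 0.43, 0.17 and −0.26 on the log2 scale, gave 0.93, 0.94 and 0.01 for the members. On that scale the sums at E12.5 and P1 were alike, and both stood above E9.5.

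The Nduf genes differed far more over the same cells. Their sum had means of 8301, 15982 and 28079 CPM, or 0.830%, 1.60% and 2.81% of all counts. The lowest, median and highest cells had 2082, 7460 and 18654 CPM at E9.5, 7103, 15999 and 26743 at E12.5, and 5378, 29034 and 41815 at P1. Of the 41 P1 cells, 38 lay above the highest E9.5 cell for Nduf, and 3 did so for the mitochondrial ribosomal proteins. The Nduf log2 ratios were 0.95 ± 0.29, 1.76 ± 0.20 and 0.81 ± 0.30 for E12.5 to E9.5, P1 to E9.5 and P1 to E12.5. The members' ratio minus the Nduf ratio, in which a scaling factor shared by all cells of a time point cancels, was −0.45 ± 0.13, −0.99 ± 0.13 and −0.54 ± 0.10 in the same order. The mean Nduf sum was thus 1.48-fold, 2.02-fold and 2.94-fold the members' sum. The gap held in each naming set: the median per-cell log2 of the members' sum over the Nduf sum was −0.50 in the C and −0.56 in the N530 cells of E9.5, −0.92 in the C and −1.12 in the N523 cells of E12.5, and −1.53 at P1. The Ndufaf assembly factors were on the members' side of this split, with log2 ratios of 0.52, 0.79 and 0.27 for their sum, although their median gene ratios were 0.25, 0.47 and 0.55.

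**Figure D2:**
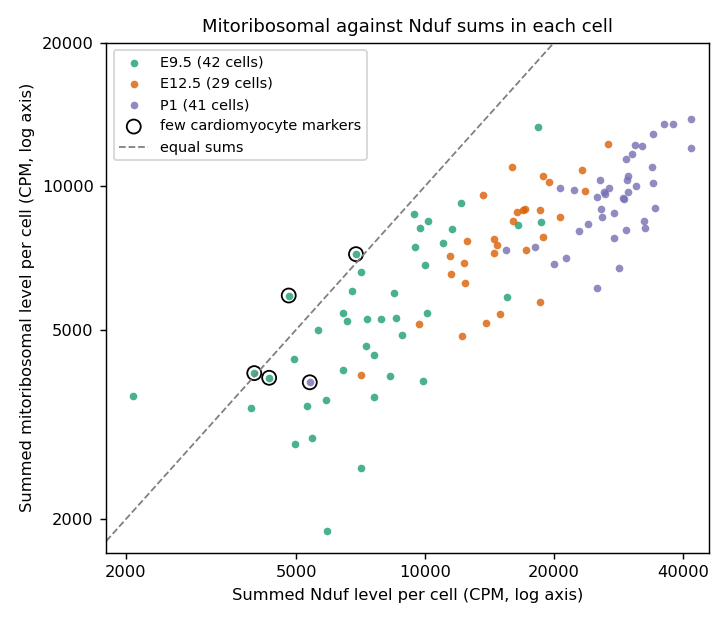
Summed CPM of the mitochondrial ribosomal protein genes against summed CPM of the Nduf genes, 1 point per cell, both axes logarithmic, coloured by time point; rings mark the 5 cells with under 10000 CPM of cardiomyocyte markers and the dashed line marks equal sums. The mean Nduf sum is 1.48-fold the mitoribosomal sum at E9.5 and 2.94-fold at P1, and the points of later times lie farther to the right of the line.

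The 5 cells with few cardiomyocyte markers lay toward the upper end of this ratio. The members' sum was larger than the Nduf sum in 4 of 42 cells at E9.5, 3 of them weakly marked, and in no cell at E12.5 or P1. The 4 weakly marked E9.5 cells had a median log2 of members over Nduf of 0.04 (−0.13 to 0.30), against −0.57 (−1.64 to 0.80) in the other 38. The ranges overlapped, and the highest value at E9.5 was that of a well-marked cell. The single P1 cell of this kind had the lowest sums of its time point, 3875 CPM for the members and 5378 CPM for Nduf, and it had 9462 CPM of endothelial and endocardial markers. With cardiomyocyte-marked cells only, the members' log2 ratios were 0.49, 0.78 and 0.30, and the differences from Nduf −0.40, −0.94 and −0.55.

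Within a time point and naming set, cells with more of the members' transcripts also had more Nduf transcripts. At equal depth the Pearson and Spearman correlations of the 2 sums were 0.73 and 0.66 over the 14 C cells and 0.73 and 0.73 over the 28 N530 cells of E9.5, 0.59 and 0.56 over the 20 C cells and 0.80 and 0.74 over the 8 N523 cells of E12.5, and 0.78 and 0.69 over 38 P1 cells. Both sums share a library and its total, and the values are a description. The relative spread between cells was widest at E9.5, with a coefficient of variation of 40.3% for the members' sum against 25.9% at E12.5 and 22.3% at P1. This came mostly from N530, with 44.3%, as the C cells had 29.8% at E9.5 and 25.1% at E12.5. Within N530 the sum also moved with the number of genes found in a cell (Spearman 0.62): the 14 N530 cells with fewer genes had a mean of 4444 CPM and the 14 with more genes 7013 CPM. In the C cells of E9.5 this correlation was 0.48, in those of E12.5 −0.02 and at P1 −0.08. It was −0.40 over the 8 N523 cells of E12.5, where the 4 cells with fewer genes had a mean of 10048 CPM and the 4 with more genes 8343 CPM. The part of this in the E9.5 level was not tested.

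Single members were found in only part of the cells. After thinning, a median of 42.5 of the 76 members had at least 1 count in an E9.5 cell, against 52 in an E12.5 cell and 50 in a P1 cell. Within set C the medians were 47, 54 and 50. N523 had a median of 42, and N530 had 22.5, where 18 of 28 cells had fewer members than any C cell of that time. Members present in at least 50% of the thinned cells numbered 36, 59 and 56. Mrpl42 and Mrps21 were found in every thinned cell at E12.5, and Mrpl33 and Mrps21 in every thinned cell at P1. At the other end, Mrpl24 was found in 21.4% of the E9.5 cells, Mrps30 in 24.1% of the E12.5 cells and Mrps2 in 26.3% of the P1 cells. Since most members were at 0 in many cells, the mean of a single member can rest on a few cells, and means without the highest cell are given where the printed mean of a member moved by over 1.5 times.

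More members were higher than lower at the later times. Per gene, the log2 ratio of mean CPM plus 1 was above 0 for 57 of the 76 members from E9.5 to E12.5 and for 60 from E9.5 to P1, beside 44.9% and 36.3% of all genes, and every member had passed a minimum mean of 5 CPM. The median member stood at 0.49 and 0.77, against −0.14 and −0.57 over all 9616 genes above that minimum and 1.06 and 1.63 over 40 Nduf genes. A member was counted as changed where it differed at least 2-fold with the same sign in every combination of naming sets. From E9.5 to E12.5, 14 members (18.4%) were 2-fold higher, where 8.66% of all genes were, and 1 (1.32%) was 2-fold lower, where 16.8% were. From E9.5 to P1, 26 members were higher, which is 34.2% beside 17.1% of all genes, and 1 was lower, beside 34.3% of all genes. From E12.5 to P1, 7 were higher (9.21%) and 3 lower (3.95%), beside 17.3% and 22.8% of all genes, so both shares were below those of all genes. The median member ratio of this last pair, 0.16, became −0.10 with TMM factors, and the split became 4 higher and 5 lower, beside 13.5% and 27.4% of all genes on that scale. The Nduf genes gave 22 higher and 0 lower of 40 for E12.5 to E9.5, 37 and 0 for the pair P1 and E9.5, and 10 and 1 for the last pair. Of all members, 44 (57.9%) had their highest mean CPM at P1, where 25.2% of all genes had theirs. E12.5 was the highest time for 24 members (31.6%), a share close to the 30.8% of all genes. E9.5 was the highest time for 8 members (10.5%), beside 44.1% of all genes. With TMM factors the count for P1 became 33 (43.4%), beside 22.7% of all genes. The count for E12.5 became 39 (51.3%), beside 44.3% of all genes, so all genes also moved toward E12.5 on that scale. The count for E9.5 became 4 (5.26%), beside 33% of all genes.

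The subunits had similar courses. The large subunit sum had log2 ratios of 0.45 ± 0.19 for E12.5 to E9.5 and 0.75 ± 0.09 for P1 to E9.5, and the small subunit sum 0.62 ± 0.19 and 0.82 ± 0.05. These differ between the subunits by less than the SD for E12.5 to E9.5 and by about it for P1 to E9.5. From E12.5 to P1 the ratios were 0.30 ± 0.21 and 0.20 ± 0.23, and that of the small subunit, which ranged from −0.05 to 0.29 over the sets, turned to −0.06 with TMM factors. The 44 members with a bacterial counterpart had ratios of 0.49, 0.71 and 0.22, and the 31 without one 0.50, 0.84 and 0.35, in the order E12.5 to E9.5, P1 to E9.5 and P1 to E12.5. Over the sets the value of 0.22 ranged from −0.08 to 0.33 and that of 0.35 from 0.21 to 0.37. The 84 cytosolic ribosomal protein symbols followed the members only to E12.5, with ratios of 0.47 ± 0.23, 0.11 ± 0.27 and −0.36 ± 0.09.

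**Figure D3:**
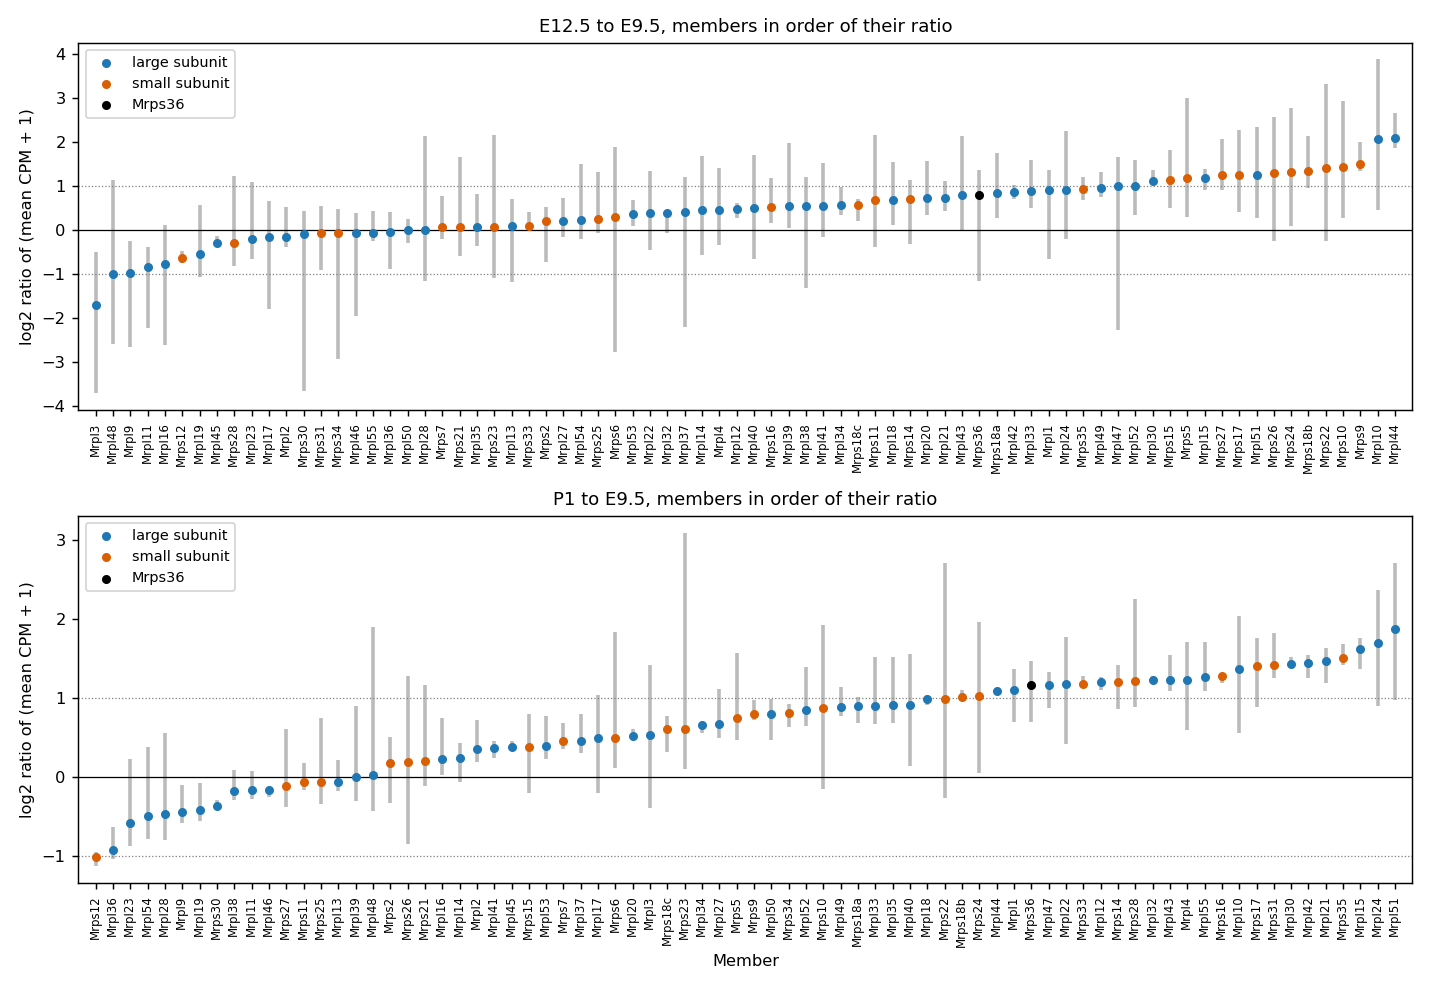
The log2 ratio of mean CPM plus 1 for each of the 76 members, in order, for E12.5 to E9.5 (top) and P1 to E9.5 (bottom); points are coloured by subunit, grey bars span the values over naming-set combinations and dotted lines mark 2-fold. In the lower panel 60 of the 76 points lie above 0, from Mrps12 at −1.01 to Mrpl51 at 1.87.

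Levels of different members were compared in TPM, transcripts per 1000000, which corrects for gene length. The median member had 94.3 TPM in the E9.5 mean and 122 TPM in those of both later times. Mrpl42, a large subunit protein without a bacterial counterpart, was the highest at each time, with 1079, 1729 and 2364 TPM. In CPM its lowest, median and highest cells had 0, 341 and 1224 at E9.5, 49.8, 669 and 1217 at E12.5, and 0, 863 and 2028 at P1. Its P1 to E9.5 log2 ratio was 1.44, between 1.25 and 1.54 over the naming sets, so that it lay above the median member. The lowest members were Mrps25 at E9.5 (16.7 TPM) and Mrpl19 at E12.5 and P1 (10.6 TPM at both).

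The other leading members by TPM all have bacterial counterparts. Mrpl18, whose bacterial relative binds 5S rRNA, had 601, 802 and 921 TPM, with a P1 to E9.5 ratio of 0.99 (0.91 to 1.04) in CPM. Mrps21 of the small subunit had 690, 615 and 637 TPM. Its P1 to E9.5 ratio in CPM was 0.20, which ranged from −0.12 to 1.16 over the sets, so the 2 units differed in direction. Mrpl33 had 475, 755 and 684 TPM and a ratio of 0.90 (0.67 to 1.51). Mrpl30 had 344, 682 and 766 TPM, and its ratios were 1.11 (1.07 to 1.36) for E12.5 and 1.43 (1.40 to 1.51) for P1 against E9.5. Mrpl12, the protein of the ribosomal stalk that contacts translation factors, had 360, 448 and 673 TPM, and its P1 to E9.5 ratio was 1.20 (1.1 to 1.26). Within set C, Mrps21 had means of 69.6, 112 and 156 CPM, whereas N530 had 170 CPM at E9.5, so its course depended on the set. Mrpl12 and Mrpl30 had more than 2-fold higher CPM at P1 than at E9.5. Mrpl42, Mrpl18 and Mrpl28 together held 16.2% of the members' CPM at E9.5 and 17.3% at E12.5. At P1, Mrpl12 took the place of Mrpl28 and the leading 3 held 19.9%. Mrpl28 had a mean of 283 CPM at both embryonic times and of 203 CPM at P1, but the embryonic values joined 139 in set C with 354 in N530, and 158 in set C with 610 in N523. The order of the members by TPM was largely kept, with Spearman correlations over the 76 members of 0.83 between E9.5 and E12.5 and 0.88 between P1 and each embryonic time.

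The members with the largest E12.5 to E9.5 ratios were Mrpl44, Mrpl10, Mrps9 and Mrps10. Mrpl44, which has a ribonuclease III-like fold and is needed to assemble the large subunit, had a median of 0 CPM and a highest cell of 269 at E9.5, a median of 13.3 and a highest cell of 1306 at E12.5, and a median of 0 and a highest cell of 691 at P1. Its means were 31.7, 139 and 68.7 CPM, and the E12.5 to E9.5 log2 ratio was 2.10 (1.86 to 2.67 over the sets). Without the highest cell of each time the means were 25.9, 97.7 and 53.1 CPM, so the E12.5 mean stayed the highest. Mrpl10, at the base of the ribosomal stalk, had means of 25.9, 112 and 68.0 CPM and a ratio of 2.07 (0.46 to 3.88), where N523 had 245 CPM and the C cells of E12.5 63.6 CPM. Mrps9 had means of 59.1, 169 and 104 CPM and a ratio of 1.5 that stayed between 1.35 and 1.99. Mrps10 had means of 27.3, 75.4 and 50.6 CPM and a ratio of 1.43 (0.26 to 2.93). All 4 had their highest mean at E12.5, and none had a median above 100 CPM at any time. They were picked by the E12.5 to E9.5 ratio, so a high E12.5 mean partly follows from the choice.

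Mrpl3, Mrpl9, Mrpl11 and Mrps12 were lower at E12.5 than at E9.5 in every combination and had the lowest ratios among those. Mrpl3, which reaches toward the peptidyl transferase centre, had lowest, median and highest cells of 0, 1.15 and 193 CPM at E9.5, of 0, 2.49 and 94.9 at E12.5, and of 0, 13.5 and 482 at P1. Its means were 36.2, 10.4 and 53 CPM and its ratio −1.70, so it was the only member counted as 2-fold lower. At E9.5 this joined 70 CPM in set C with 19.3 in N530, and the ratio ranged from −3.71 to −0.50. Mrpl9 had means of 53 and 26.2 CPM and a ratio of −0.99 (−2.67 to −0.26), but 1 E9.5 cell had 1162 CPM and without it the E9.5 mean was 25.9 CPM. Mrpl11, at the stalk base beside Mrpl10, had means of 90 and 49.5 CPM and a ratio of −0.85 (−2.23 to −0.40). Mrps12, which lines the decoding centre, had means of 33.4 and 20.9 CPM and a ratio of −0.65 that moved only between −0.75 and −0.47.

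From E9.5 to P1 the largest ratios were those of Mrpl51, Mrpl24, Mrpl15 and Mrps35. Mrpl51 had lowest, median and highest cells of 0, 39.6 and 167 CPM at E9.5, of 0, 117 and 336 at E12.5, and of 0, 172 and 553 at P1. Its P1 to E9.5 log2 ratio was 1.87, with 0.97 against the C cells (104 CPM) and 2.70 against the N530 cells (30.4 CPM). Mrpl24 had means of 11.8, 22.8 and 40.2 CPM and a ratio of 1.69 (0.89 to 2.36). Mrpl15 had means of 69.1, 159 and 215 CPM and a ratio of 1.62 that lay between 1.37 and 1.76. Mrps35 had means of 42.1, 81.3 and 121 CPM and a ratio of 1.5 (1.42 to 1.68). All 4 had a higher mean at each later time. They were picked by the P1 to E9.5 ratio, so a high P1 mean partly follows from the choice.

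Mrps12 was the only member counted as 2-fold lower at P1 than at E9.5. Its median cell had 5.01, 7.97 and 0 CPM over time, its highest cells had 277, 134 and 143 CPM, and its P1 to E9.5 log2 ratio was −1.01 (−1.13 to −0.95). The count rests on the limit: the ratio was just past 2-fold, and no member was called lower after thinning, with a pseudocount of 5 CPM or with TMM factors. Mrps12 lies on chr7:28739641-28741820 (GRCm38, minus strand), 172 bases from the start of Sars2, which runs the other way and encodes the mitochondrial seryl-tRNA synthetase. Sars2 had means of 120, 21.6 and 14.9 CPM and a ratio of −2.92, but 1 E9.5 cell had 3529 CPM, and without the highest cell of each time its means were 36.8, 15.4 and 7.26 CPM. The start of Sars2 lies inside the Mrps12 window printed above. The YY1 match of that window lies past this start, within Sars2, and reads AAGATGGC on the strand of Sars2. Mrpl36, a small protein of the large subunit, had a ratio of −0.92 (−1.04 to −0.64), with medians of 120, 123 and 27.4 CPM and means of 157, 152 and 82.4 CPM. Mrpl9 and Mrpl19 followed with −0.44 (−0.59 to −0.10) and −0.42 (−0.56 to −0.08), which for Mrpl9 depended on the single cell named above: without the highest cell the E9.5 mean was 25.9 CPM and the P1 mean 32.5 CPM.

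From E12.5 to P1 the largest ratios belonged to Mrpl3 (2.24, from 1.91 to 3.31 over the sets), Mrps28 (1.51, from 1.02 to 1.69), Mrps31 (1.49, from 1.27 to 2.17) and Mrpl55 (1.33, from 1.27 to 1.34). Mrps28 had median cells of 10.3, 28.1 and 160 CPM and Mrpl55 of 12.0, 50.1 and 151 CPM, so these 2 were also found in more cells. Mrps31 had means of 39.5, 37.4 and 107 CPM, which were 20.7, 30.2 and 87.4 CPM without the highest cell of each time. The lowest ratios were those of Mrps27 (−1.36, from −1.46 to −1.29), Mrps26 (−1.10, from −1.31 to −0.59), Mrpl44 (−1.01, from −1.57 to −0.79) and Mrpl36 (−0.88, from −1.05 to −0.14). Mrps27, a small subunit protein of the pentatricopeptide repeat family, had median cells of 0.0879, 42 and 0 CPM and means of 43.4, 104 and 39.9 CPM. Mrps26 had means of 11.1, 28.7 and 12.8 CPM with a median of 0 at each time, and its E9.5 mean was 6.67 CPM without the highest cell. Mrps27 and Mrps26 thus stood at E12.5 above both other times, which partly follows from their choice by the P1 to E12.5 ratio.

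Of the members, 4 are known from patients with cardiomyopathy, and their courses differed from each other. Mrpl44 and Mrpl3 went opposite ways between E9.5 and E12.5, as given above. Mrps14, a small subunit protein with a bacterial counterpart, had lowest, median and highest cells of 0, 80.6 and 440 CPM at E9.5, of 7.20, 148 and 614 at E12.5 and of 0, 206 and 1050 at P1, and a P1 to E9.5 ratio of 1.20 (0.86 to 1.41). Mrps22, a small subunit protein of mitochondria only, had means of 39.9, 107 and 80.1 CPM, where the E9.5 value joined 97.0 in set C with 11.4 in N530, so its P1 to E9.5 ratio ranged from −0.27 to 2.71. Mrps14 was found in every kept cell at E12.5, whereas Mrpl3 was found in 16 of those 29 cells.

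**Figure D4:**
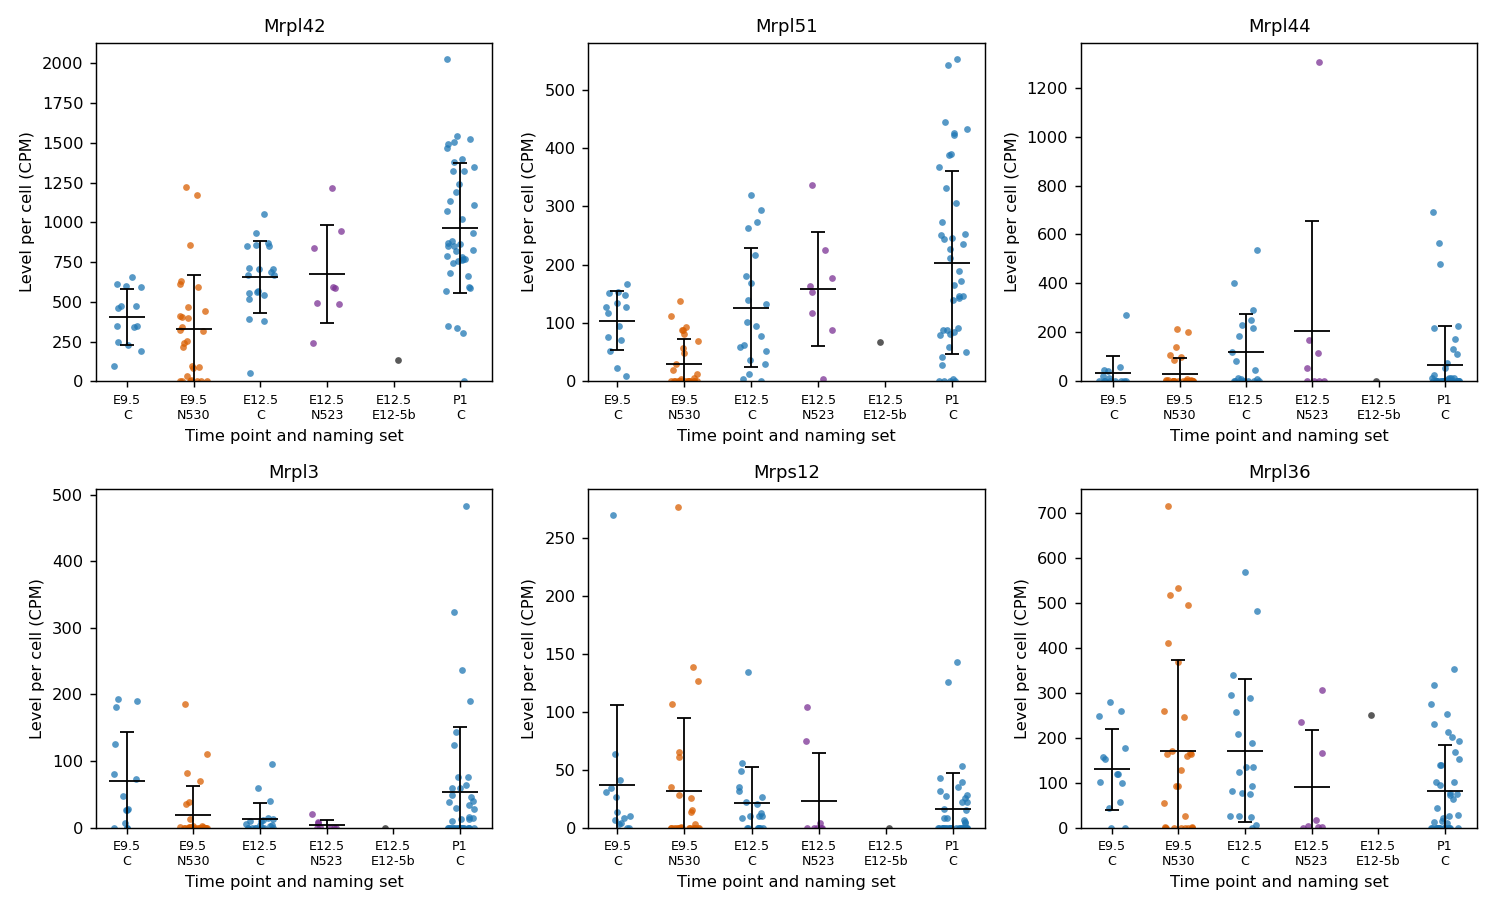
CPM of 6 members in each cell (points) by time point and naming set; bars give the mean and SD over cells for sets of at least 6 cells, and the lower part of an SD bar that would pass 0 is not drawn. Mrpl42 and Mrpl51 have their highest means at P1 (963 and 204 CPM), Mrpl44 at E12.5 (139 CPM), Mrpl3 its lowest at E12.5 (10.4 CPM), and Mrps12 and Mrpl36 their lowest at P1 (16.1 and 82.4 CPM).

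The GENCODE M21 annotation of GRCm38 lists 5 pseudogenes named after members, Mrpl23-ps1, Mrpl48-ps and 3 of Mrps36, and reads shared with them may have been counted or lost, so the levels of Mrpl23, Mrpl48 and Mrps36 are uncertain. Among close paralogues, Mrps18a, Mrps18b and Mrps18c have separate symbols in the files. Mrps18c had 392, 517 and 488 TPM, Mrps18a of the large subunit 194, 293 and 272 TPM, and Mrps18b 66.6, 154 and 111 TPM. Their order was the same at each time, and all had their highest TPM at E12.5. In CPM, Mrps18a had means of 77.5, 141 and 145, with the highest at P1, so this shared peak depends on the unit.

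Among the Nduf genes used for comparison, the highest by TPM were Ndufa4, Ndufb8, Ndufb9 and Ndufa1. Ndufa4, which is now known as a part of cytochrome c oxidase, had 2334, 3334 and 4947 TPM, so it lay above Mrpl42 at each time. Ndufa1 had a median of 223, 436 and 631 CPM, and no P1 cell was under 151 CPM. The largest P1 to E9.5 ratios were those of Ndufab1 (2.84), the acyl carrier protein, Ndufs3 (2.71) and Ndufb4 (2.60), each above the largest ratio of a member, 1.87. Of the 40 Nduf genes above the minimum, only the assembly factor Ndufaf2 (−0.10) had a ratio below 0, with means of 33.5, 76.9 and 31.2 CPM. Without the Ndufaf factors, all 36 Nduf genes above the minimum were 2-fold higher at P1 than at E9.5.

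Other genes of mitochondrial translation did not share one course. The 6 mitoribosome proteins with other names had a log2 ratio of their sum of −0.70 ± 0.66 for E12.5 to E9.5 and −0.52 ± 0.81 for P1 to E9.5, and in the latter pair none was 2-fold higher and 2 (33.3%) were lower, a share close to the 34.3% of all genes. These were Ptcd3 (−1.54), whose E9.5 mean of 501 CPM held 1 cell at 6639 CPM, and Gadd45gip1 (−1.27), with means of 14.0, 11.3 and 5.23 CPM. Aurkaip1 (0.50) and Dap3 (0.46), both of the small subunit, had ratios nearer the median member. The 13 translation factors had a ratio of 0.53 ± 0.22 for P1 to E9.5, with 2 of 12 higher (16.7%) and 1 lower (8.33%), beside 17.1% and 34.3% of all genes. Among them Oxa1l, which inserts new proteins into the inner membrane, had 56.4, 95.7 and 162 CPM (1.51), Guf1 had 3.01 with a median of 0 CPM at each time, and the initiation factor Mtif3 had −2.70. Mtfmt, which formylates the initiator methionine tRNA, had −1.09, with −2.57 and 2.12 as the ends of its range over the naming sets. Tufm and Gfm1, the elongation factors, had means of 87.5 and 134 CPM at E9.5 and of 104 and 136 CPM at P1.

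The 17 mitochondrial aminoacyl-tRNA synthetases had a ratio of −0.42 ± 0.93 for P1 to E9.5, with 3 of 14 higher (21.4%) and 4 lower (28.6%), near the 17.1% and 34.3% of all genes. Ears2 (3.70), for glutamate, was at a median of 0 CPM at each time, as were Sars2 (−2.92) and Iars2 (−2.17), for serine and isoleucine. The ratio of Iars2 ranged from −2.74 to 2.40 over the naming sets, with 4.16 CPM in the C and 180 CPM in the N530 cells of E9.5. Of 16 assembly and rRNA modification genes above the minimum, 6 were 2-fold higher at P1 than at E9.5 (37.5%, beside 17.1% of all genes) and 0 lower (beside 34.3%), with a ratio of the sum of 0.21 ± 0.22. Gtpbp5, the GTPase also called Mtg2, had 3.20, and the methyltransferase gene Mrm1 had 1.99, with 0 counts in the E12.5 cells. Dhx30 (−2.06) and Tfb1m (−2.01) had the lowest of these ratios, but the former ranged from −2.53 to 0.09 over the naming sets and the latter from −2.57 to 2.61. Gtpbp5, Mrm1 and Tfb1m had a median of 0 CPM at each time, so their ratios rest on few cells.

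Genes of mitochondrial transcription and RNA stability had a ratio of −0.16 ± 0.57 for P1 to E9.5, which turned to 0.01 with TMM factors, with 2 of 11 higher and 2 lower (18.2% each, beside 17.1% and 34.3% of all genes). Tfam, which packages the mitochondrial genome and starts its transcription, had means of 80.4, 48.9 and 31.5 CPM and a ratio of −1.32 (−1.55 to −0.72). Polg, the mitochondrial DNA polymerase, had −3.18 with 1 E9.5 cell at 768 CPM, and without the highest cell its means were 3.21, 0.327 and 0.318 CPM. Tfb2m had 2.19 and the elongation factor gene listed as 1110002N22Rik (Tefm) 1.45. Of the 12 regulators of mitochondrial gene expression, 3 were 2-fold higher (25.0%) and 4 lower (33.3%) at P1 than at E9.5, which is near the 17.1% and 34.3% of all genes. The co-activator gene Ppargc1b had means of 16.1, 10.2 and 69.3 CPM (2.04), and the nuclear receptor gene Esrrb had 2.39 with a mean of 9.33 CPM at P1. Mycn had means of 49.8, 124 and 1.17 CPM (−4.55), and Nrf1 had −3.31, where the E9.5 mean of 128 CPM fell to 16.6 CPM without 1 cell. Sublists of the members and of Nduf aside, the members, the Nduf genes and the translation factors were therefore the lists with sums above E9.5 at both later times in every naming-set combination. The translation factors stood above E9.5 by less than the members and Nduf genes.

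**Figure D5:**
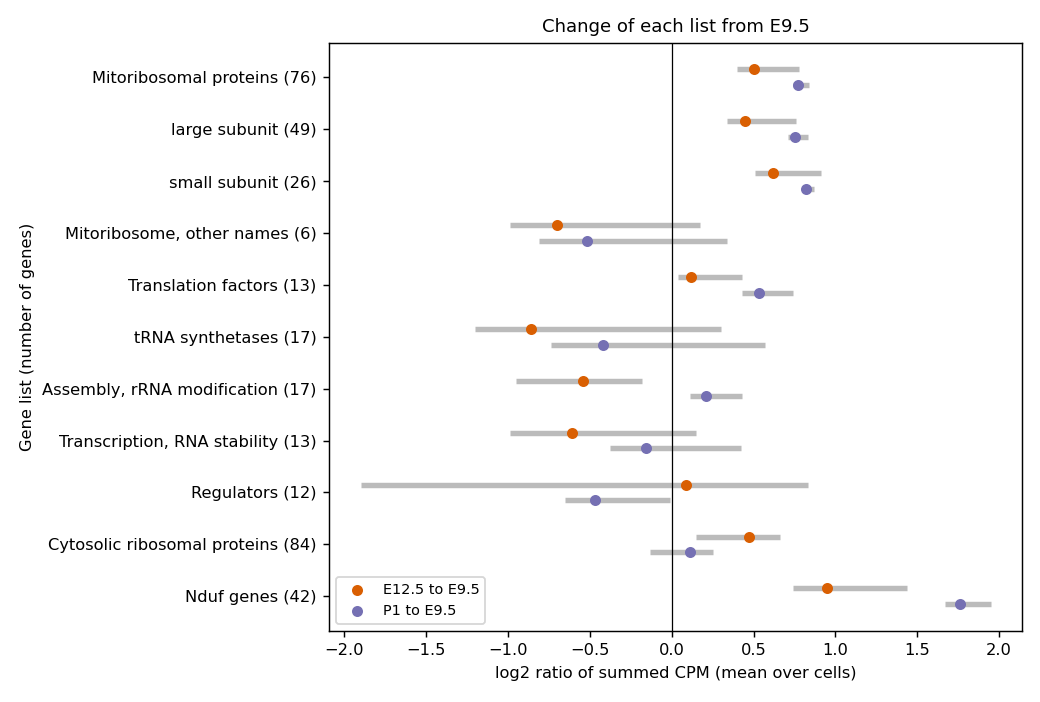
The log2 ratio of the mean summed CPM of each gene list for E12.5 to E9.5 and for P1 to E9.5 (points), with grey bars spanning the values over naming-set combinations. The mitoribosomal proteins stand at 0.50 and 0.77 with narrow bars, the Nduf genes at 0.95 and 1.76, and the synthetases and the mitoribosome proteins with other names have bars that cross 0.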

How the data were processed

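Single-cell RNA sequencing was done on GFP-sorted cells from αMHC-GFP mouse hearts, with cDNA made on the Fluidigm C1 system (SMART-Seq) and Nextera XT libraries. The deposited counts are whole reads per gene symbol, which the authors obtained by mapping with OLego and counting with featureCounts, and the submitters' processing notes name GRCm38 and mm10. How reads with several places in the genome were counted is not given in the sources used here. The authors computed the deposited TPM from those counts per gene length, on a linear scale that sums to 1000000 in each cell. Both tables hold 123 cells, of which 112 had at least 2000 genes with a count, and the study states a larger number after the same limit.

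CPM were computed from the counts per cell, summed over a gene list and averaged over the cells of a time point with equal weight. A gene's ratio is the log2 of mean CPM plus 1 at both times, which understates the change of low genes, and genes with a mean of at least 5 CPM over the time points were compared. Thinning drew 100000 counts per cell without replacement. Naming sets came from the start of the titles. Whether the sets are chips, runs or litters is not given, so set, depth and animal cannot be told apart, and P1 has 1 set only. In sorted single cells, less RNA per cell and a lower level of one gene cannot be told apart either. With 1 sample per time point no test was run. TMM factors came from edgeR 4.0.16 in R 4.3.3 on counts pooled by time point, and Python 3.11.15 with numpy 2.4.6, pandas 2.3.3 and scipy 1.17.1 did the rest. The scripts for ratios and calls were tested on simulated data.

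The members and the gene lists were chosen with earlier results of these data known. Named members were the 6 highest by TPM, the 4 largest ratios per pair of times and direction among those with the same sign in every combination of naming sets, the 4 linked to cardiomyopathy and the 3 with the most counts. Named Nduf genes were the 4 highest by TPM and the 3 largest ratios of P1 to E9.5 per direction, and for the other lists the 2 largest per direction, in both cases whatever their sign in single naming sets. The extremes of TPM and of detection, the Mrps18 paralogues, Tufm, Gfm1 and the neighbourhood of Mrps12 and Sars2 were chosen after their values were seen, as was the look at genes found per cell. The symbols of 13 listed genes are older in the files than in the lists, such as Gtpbp5 for Mtg2. Alternatives covered pooling, depth, cell and gene filters, naming sets, scaling, TPM, leading members, medians, cell markers and single cells. A gene that the rule for the other lists names is not reported here.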

Additional observations from a re-analysis of the deposited data

Results flagged for a closer look

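The 11 P1 cells with fewer than 2000 genes were left out of every comparison, and the mitochondrial ribosomal proteins were nevertheless well above the limit of detection in them. Their pooled counts held 7298 reads of the members among 714929, or 10208 CPM (95% exact Poisson interval 9975 to 10445, counting error only), where a count of 0 would have allowed up to 4.20 CPM. The single cells ranged from 4564 to 14177 CPM with a median of 10387, which lies within the range of the 41 P1 cells used, except that the highest was above their highest of 13814. Their median Nduf sum was 32078 CPM. These cells, with totals between 4903 and 149120 counts, had the same order of the sums as the other P1 cells.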

How the results depend on the processing

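The members' sum was larger at E12.5 and P1 than at E9.5, and their ratio below that of Nduf, under every alternative run. TMM factors scale both sums alike, so that alternative could not change the difference from Nduf. With TMM factors some P1 to E12.5 ratios of groups changed sign, among them those of the median member (0.16 to −0.10), the small subunit (0.20 to −0.06), the members with a bacterial counterpart (0.22 to −0.04), the 4 linked to cardiomyopathy (0.06 to −0.20) and the mitoribosome proteins with other names (0.18 to −0.08), as did the P1 to E9.5 ratio of the transcription genes (−0.16 to 0.01). Of 14 alternatives for the E12.5 to E9.5 ratio of 0.50, 11 stayed within its SD, and the others were 0.68 with only N530 and N523 cells for the embryonic times, 0.93 with TMM factors and 0.31 in TPM. The P1 to E9.5 ratio of 0.77 became 0.63 with pooled counts, 0.94 with TMM factors, 0.44 in TPM and 0.87 with the median over cells. The P1 to E12.5 ratio of 0.27 became 0.07 with pooled counts, 0.06 with N530 and N523 and 0.01 with TMM factors, so this difference depended on the scaling and on the set. The members' ratio minus that of Nduf ranged from −0.57 to −0.39, from −1.11 to −0.86 and from −0.59 to −0.45 for E12.5 to E9.5, P1 to E9.5 and P1 to E12.5, and the only value beyond its SD was −0.86, from the median over members. Counts of members 2-fold higher depended most on scaling: with TMM factors they were 28 in place of 14 for E12.5 to E9.5 (14.9% of all genes) and 4 in place of 7 for P1 to E12.5 (13.5% of all genes). Counts of members 2-fold lower moved with several settings, and with TMM factors they were 5 in place of 3 for P1 to E12.5 (27.4% of all genes). Over all genes TMM gave 1429 higher and 1091 lower in place of 833 and 1619 for E12.5 to E9.5. Members 2-fold lower numbered 2 after thinning for E12.5 to E9.5 (16.9% of all genes). They numbered 0 after thinning, with a pseudocount of 5 CPM and with TMM factors for P1 to E9.5 (34.3%, 31.3% and 31.0% of all genes), and 1 after thinning and with that pseudocount for P1 to E12.5 (21.3% and 20.2%). The cause of these shifts was not tested. The alternative without pseudogene symbols gave no value of its own, since no member symbol holds a hyphen. No paired analysis was possible because the groups share no animal or litter number and no test was run. In a cell thinned to 100000 counts, a member near 10 CPM is expected as about 1 count, so its absence from a cell shows little.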
